A study of Homo sapiens with 4 samples.

Results

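Flotillins, caveolins, stomatins and prohibitins are membrane scaffold proteins, and the transcripts of 9 of their genes were followed here in irradiated and unirradiated pancreatic cancer cells. The genes are FLOT1 and FLOT2, CAV1 and CAV2, STOM, STOML1 and STOML2, and PHB and PHB2, found by gene name in a deposited table of 58174 genes with an Ensembl identifier. The set was chosen by family, with FLOT2 and STOM in view because their values were higher after radiation. The differences between irradiated and unirradiated libraries are therefore given as descriptions, with no test of the set.

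RNA was sequenced from SW1990 and PANC-1, both established human pancreatic cancer cell lines. For each line there was 1 library from unirradiated cells (0 Gy) and 1 library from cells given 10 Gy of X-rays, so no condition had a replicate. Reads assigned to genes summed to 17851815 (unirradiated) and 18305682 (irradiated) in SW1990 cells, while PANC-1 cells gave 23323266 and 20026595. The time from radiation to RNA extraction is not given in the sources used here. Bulk RNA was measured, so a change in the mixture of cells and a change in RNA per cell cannot be told apart.

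Flotillins, stomatins and prohibitins share a conserved SPFH domain, with which they form rings or cage-like oligomers on membranes. Flotillins line cholesterol-rich plasma membrane domains (lipid rafts) and endocytic vesicles, caveolins build the coat of the flask-shaped invaginations called caveolae, and stomatin binds ion channels and the glucose transporter GLUT1. Prohibitins and STOML2 act in the inner mitochondrial membrane instead, where they organise cardiolipin-rich domains and hold proteases. FLOT1, FLOT2, CAV1 and STOM proteins are also found regularly in exosome preparations, the vesicles whose release from irradiated cells the study examined.

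The cells were first checked against marker genes. KRT8, KRT18 and KRT19, keratins of simple and ductal epithelium, were abundant in every library, and the 6 epithelial markers summed to 2883, 3720, 1409 and 1639 FPKM (fragments per kilobase of transcript, scaled to the mapped fragments of the library) in unirradiated SW1990, irradiated SW1990, unirradiated PANC-1 and irradiated PANC-1 cells. This order of libraries is kept wherever 4 values are given. The most abundant was KRT8, at 1352, 1888, 786 and 851 FPKM. The adhesion proteins EPCAM (217, 218, 2.28 and 2.81 FPKM) and CDH1 (140, 239, 0.673 and 1.21 FPKM) were high in SW1990 cells and low in PANC-1 cells. VIM, the mesenchymal intermediate filament, had 0.626, 0, 1627 and 1650 FPKM, and the 4 mesenchymal-like markers summed to 0.940, 1.49, 1647 and 1670 FPKM, nearly all of it VIM in PANC-1 cells only. ZEB1, a repressor of epithelial genes, had 14, 66, 1394 and 1084 counts, FN1 (fibronectin) had 0, 25, 8 and 9, and CDH2 (N-cadherin) had 0, 4, 333 and 301. Among all these markers, those past the limits used below for a call after radiation were ZEB1 in SW1990 cells (log2 fold change 2.26, interval 1.41 to 3.20) and, in the other direction, the pericyte and fibroblast receptor PDGFRB in the same line, with 129 counts unirradiated against 63 irradiated (-1.01 on the log2 scale, interval -1.47 to -0.57). Their part in the members' differences after radiation was not tested. Markers of other cells were low. Those of fibroblasts summed to at most 11.7 FPKM in any library, with COL1A2 and DCN at 0 counts in all, those of endothelium to at most 6.38 FPKM, most of it KDR in PANC-1 cells, and those of leukocytes to at most 1.54 FPKM. The erythroid, acinar and adipocyte markers reached at most 2.42, 0.604 and 0.164 FPKM.

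Per length, the mitochondrial members were high in every library, and PHB and STOML2 varied least. PHB and PHB2, the subunits of the prohibitin ring, had 102, 103, 86.9 and 102 FPKM and 176, 141, 83.2 and 89.4 FPKM. STOML2, which works with prohibitins and cardiolipin, had 85.4, 84.4, 92.5 and 95.5 FPKM. In each library these 3 genes lay above 95% of the genes listed at 1 FPKM or more. STOML1, a stomatin relative linked to cholesterol transfer in late endosomes, was the lowest member everywhere, at 1.75, 0.947, 2.83 and 2.97 FPKM. PHB and PHB2 share sequence with 22 pseudogenes listed in the table, and these together held between 0.56% and 1.68% as many counts as the pair.

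The order of the members differed between the lines. In unirradiated SW1990 cells it ran PHB2, PHB, STOML2, FLOT1, FLOT2, STOM, CAV1, CAV2 and STOML1. In unirradiated PANC-1 cells CAV1 led (115 FPKM), followed by STOML2, PHB, PHB2 and FLOT1, which lay between 92.5 and 82.9 FPKM, then CAV2, STOM, FLOT2 and STOML1. With 1 library per condition, neighbours that close cannot be ordered.

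The flotillins, FLOT1 and FLOT2, assemble into mixed oligomers. FLOT1 lies on chromosome 6 (minus strand, 30727709 to 30742733, GRCh38) and FLOT2 on chromosome 17 (minus strand, 28879335 to 28897679). No expressed gene in the table overlaps them on the same strand beyond a Y_RNA entry of at most 10 counts within FLOT1. Their promoters, from 250 bases before to 50 bases after the RefSeq start site (GRCh38.p14), are shown because FLOT2 in PANC-1 cells had the highest ratio of irradiated to unirradiated counts among the members and FLOT1 in SW1990 cells the lowest. They are read in the direction of transcription from the minus strand, chr6:30742638-30742937 for FLOT1 and chr17:28897684-28897983 for FLOT2. Short motifs were searched on both strands and set in capitals wherever they occurred. The GC box is spelled GGGCGG and is the site of Sp1-like factors. The second motif is the CCAAT box, which NF-Y recognises. For the TATA box the letters TATAAA were used.
FLOT1: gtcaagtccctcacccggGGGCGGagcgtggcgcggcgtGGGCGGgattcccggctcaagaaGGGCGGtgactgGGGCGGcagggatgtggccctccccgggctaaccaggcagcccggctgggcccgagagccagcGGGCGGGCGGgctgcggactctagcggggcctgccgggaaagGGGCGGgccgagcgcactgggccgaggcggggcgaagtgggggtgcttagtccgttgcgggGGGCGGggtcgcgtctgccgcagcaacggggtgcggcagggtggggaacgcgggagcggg
FLOT2: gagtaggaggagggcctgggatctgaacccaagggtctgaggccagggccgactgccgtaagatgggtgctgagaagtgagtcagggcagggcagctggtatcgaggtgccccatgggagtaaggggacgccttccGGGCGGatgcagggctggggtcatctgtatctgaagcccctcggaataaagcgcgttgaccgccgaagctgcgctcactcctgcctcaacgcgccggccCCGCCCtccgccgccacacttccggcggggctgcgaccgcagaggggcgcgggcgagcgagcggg
The FLOT1 window held 8 GC boxes, 2 of which overlap by 2 bases, and the FLOT2 window held 2. Among 35116 promoter windows of this length, 45% held at least 1 GC box, 34.6% a CCAAT box and 11.5% a TATA box. Neither flotillin window held a CCAAT or TATA box, and a match of letters is not evidence of a bound factor.

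FLOT2 had 1661, 2101, 1210 and 2468 counts in the 4 libraries, or 32.4, 40.7, 17.8 and 39.7 FPKM. The irradiated library was the higher one in both lines, and both irradiated libraries came to nearly the same FPKM from different starting levels. In PANC-1 cells the counts were 2.23 times higher after radiation (95% interval 2.08 to 2.39) (1.16 on the log2 scale). In SW1990 cells they were 1.28 times higher (1.20 to 1.37) (0.36 on the log2 scale). These intervals, and the others for radiation, are exact Clopper-Pearson intervals of counts scaled by TMM (trimmed mean of M values) and cover counting error only.

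FLOT1 had 1971, 1098, 2908 and 2943 counts, or 63.4, 37.9, 82.9 and 77.0 FPKM. In SW1990 cells the irradiated library was 1.77 times lower (log2 fold change -0.82, 95% interval -0.93 to -0.72), and the FPKM values gave -0.74. In PANC-1 cells the values were close, with 0.15 from the counts (0.07 to 0.22) and -0.11 from the FPKM values, so the direction there depended on the unit.

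With FLOT1 lower or level and FLOT2 higher, the ratio of FLOT2 to FLOT1 by FPKM was about doubled in each irradiated library. FLOT2 was in view for its higher values when the set was chosen, so the direction of the ratio was partly fixed beforehand. By FPKM the log2 fold changes were -0.74 for FLOT1 and 0.33 for FLOT2 in SW1990 cells. In PANC-1 cells they were -0.11 and 1.16. The larger part was thus FLOT1 in SW1990 and FLOT2 in PANC-1 cells. The ratio was 0.511 without and 1.08 with radiation in SW1990 cells, and 0.215 and 0.516 in PANC-1 cells. The summed flotillin level moved less, from 95.8 to 78.6 FPKM in SW1990 cells and from 101 to 117 FPKM in PANC-1 cells.

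STOM encodes stomatin, an integral membrane protein of rafts and vesicles, on chromosome 9 (minus strand, 121338988 to 121370304). Its promoter is shown because STOM was the member with the largest difference after radiation in SW1990 cells. It is the minus strand of chr9:121370201-121370500, capitals as above.
STOM: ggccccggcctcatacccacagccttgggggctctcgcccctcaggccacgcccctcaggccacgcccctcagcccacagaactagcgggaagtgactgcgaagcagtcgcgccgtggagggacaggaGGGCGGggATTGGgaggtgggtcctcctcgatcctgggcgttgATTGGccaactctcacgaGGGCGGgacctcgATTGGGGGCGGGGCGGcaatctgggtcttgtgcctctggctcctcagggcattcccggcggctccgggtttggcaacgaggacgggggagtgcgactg
It held 4 GC boxes, 2 of which overlap by 1 base, and 3 CCAAT boxes, all read on the opposite strand. STOM was the only one of the 5 members printed here with a CCAAT box, and STOML2 and PHB had 1 each.

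STOM counts were 419, 838, 1600 and 1552, or 6.87, 13.7, 21.1 and 22.5 FPKM. In SW1990 cells it was 2.03 times higher after radiation (1.80 to 2.29), and in PANC-1 cells 1.06 times (0.989 to 1.14). The irradiated SW1990 library remained below both PANC-1 libraries. STOML1 and STOML2 showed no such difference by counts in SW1990 cells: STOML1 had 74 and 70 counts (log2 fold change -0.06, interval -0.55 to 0.43) and STOML2 had 2280 and 2353 (0.07, -0.02 to 0.15). For STOML1 the FPKM values gave -0.89, outside the interval from its counts.

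Called genes were those with a q-value under 0.001 in a binomial test of the reads of the 2 libraries and a fold change over 2, the limits of the study's methods. The test compares libraries, not conditions. In SW1990 cells 1 of 9 members was called, STOM, against 4.26% of 15731 genes tested (2.47% higher, 1.79% lower). In PANC-1 cells 1 of 9 was called, FLOT2, against 4.77% of 15159 genes (2.42% higher, 2.35% lower). STOM lay just inside the limit in SW1990 cells. The nearest members outside it were FLOT1, 1.77 times lower, and, further off, CAV2, 1.47 times higher. The call of STOM was lost with scaling to total counts (log2 fold change 0.96), with TMM factors from the SW1990 libraries alone (0.99), and with FPKM values (0.99). With a fold change over 1.5, FLOT1 was also called in SW1990 cells, lower, against 9.5% of all genes, and in PANC-1 cells FLOT2 remained the only member, against 11.8%. As these contrasts chose the set, nothing is read from the counts of calls.

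Of all genes tested, 8.93% had a log2 fold change larger in size than that of STOM in SW1990 cells. For FLOT1 in that line the share was 12.7%, and for FLOT2 it was 35.3%. In PANC-1 cells 6.81% of the genes tested had a larger change than FLOT2. The median log2 fold change over the 9 members was 0.07 for SW1990, where all genes tested gave 0.02, and 0.05 for PANC-1, where all genes gave -0.02. By scaling to total counts these medians became 0.01 and 0.14, against -0.04 and 0.07 for all genes.

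Caveolins showed small differences after radiation, in opposite directions in the lines. CAV1, the main structural protein of caveolae, had 273 counts in unirradiated and 322 in irradiated SW1990 cells (log2 fold change 0.26, interval 0.02 to 0.50), and 5731 and 4427 in PANC-1 cells (-0.24, -0.30 to -0.19). CAV2, which needs CAV1 to reach the plasma membrane, had 112 and 162 counts in SW1990 cells (0.55, 0.20 to 0.91), and 4793 and 3653 in PANC-1 cells (-0.26, -0.32 to -0.20). From the FPKM values the differences in PANC-1 cells were smaller, -0.09 for CAV1 and -0.12 for CAV2.

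The prohibitins moved little. PHB had 3752 and 3882 counts in SW1990 cells (0.07, 0.00 to 0.13) and 4265 and 4499 in PANC-1 cells (0.21, 0.15 to 0.27). PHB2 had 3742 and 3207 counts in SW1990 cells (-0.20, -0.27 to -0.13) and 2387 and 2229 in PANC-1 cells (0.03, -0.05 to 0.12). STOML2 had 3306 and 2907 counts in PANC-1 cells (-0.06, -0.13 to 0.02), and STOML1 had 171 and 162 (0.05, -0.27 to 0.37). By counts the widest gaps among the prohibitins were 1.15-fold, for PHB in PANC-1 and for PHB2 in SW1990 cells. For PHB2 in SW1990 cells the FPKM values gave -0.32, outside the interval from its counts.

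The 9 members were chosen by family and not by the difference between the lines, but earlier results of these data were known. The difference between the lines was tested over all 4 libraries with edgeR's quasi-likelihood test, with treatment as a covariate. Each line has 2 libraries in this fit, 1 per treatment, which leaves 1 residual degree of freedom, and its spread is not that between repeated cultures. Of the 9 members 5 passed an adjusted p-value of 0.05, 4 of them higher in PANC-1 cells. Among 18180 genes tested 43.6% passed (22.2% higher and 21.4% lower in PANC-1 cells), so a share of this size is near that of all genes. Fewer members, and fewer of all genes, passed when any 1 library was left out and line was the only term. Such a fit has only 1 library for the line concerned.

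The caveolins differed most. CAV1 was 15.8 times higher in PANC-1 cells (log2 difference 3.98 ± 0.20 SE, adjusted p = 0.000898) and CAV2 28.7 times higher (4.84 ± 0.27, adjusted p = 0.000989). In both PANC-1 libraries they were far above both SW1990 libraries, and 12.8% of the genes tested had a larger difference than CAV1 and 10.8% a larger one than CAV2. By FPKM the caveolins summed to 8.21, 10.3, 192 and 179. The ratio of CAV2 to CAV1 was also higher in PANC-1 cells, at 0.670 and 0.653 against 0.359 and 0.450 in SW1990 cells. The part of the epithelial and mesenchymal markers that differed along with them, such as CDH1 and VIM above, was not tested.

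CAV1 and CAV2 are neighbours on chromosome 7 in the same orientation. CAV2 is annotated from 116287380 to 116508541 and CAV1 from 116524785 to 116561184, 16243 bases apart, on the plus strand. Their promoters are printed because the pair differed together between the lines. RefSeq places the start of CAV2 far inside the annotated gene, and the windows are chr7:116499488-116499787 and chr7:116524759-116525058, both on the plus strand, capitals as above. RefSeq lists several starts for both genes, and the one nearest the annotated 5′ end of the gene was used.
CAV2: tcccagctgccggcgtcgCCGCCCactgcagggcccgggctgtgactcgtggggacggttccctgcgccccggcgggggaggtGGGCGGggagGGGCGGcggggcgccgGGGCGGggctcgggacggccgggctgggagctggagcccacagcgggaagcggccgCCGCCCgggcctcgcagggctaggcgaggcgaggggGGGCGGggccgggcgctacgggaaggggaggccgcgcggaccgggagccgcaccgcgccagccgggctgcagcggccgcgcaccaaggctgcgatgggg
CAV1: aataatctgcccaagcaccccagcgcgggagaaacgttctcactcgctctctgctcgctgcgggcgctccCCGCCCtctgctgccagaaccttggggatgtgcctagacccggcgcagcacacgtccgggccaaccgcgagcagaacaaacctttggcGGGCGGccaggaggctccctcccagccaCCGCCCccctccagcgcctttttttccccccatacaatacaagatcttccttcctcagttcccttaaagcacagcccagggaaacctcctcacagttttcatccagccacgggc
The CAV2 window is 82.7% G and C with 6 GC boxes, and the CAV1 window is 62.3% G and C with 3. Neither held a CCAAT or TATA box. On the opposite strand, reads of AC002066.1, whose 5′ end lies next to the CAV2 window, were 0, 4, 53 and 28 counts.

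STOM was 2.46 times higher in PANC-1 cells (standard error 0.27 on the log2 scale, adjusted p = 0.0190). The gap was wider without radiation (FPKM ratio 3.07) than with it (1.65). Without either PANC-1 library its adjusted p was 0.104 or 0.124. STOML1, with the fewest counts, was 2.14 times higher (1.10 ± 0.30, adjusted p = 0.0413) and did not pass without any 1 of the libraries, with scaling by total counts, without a count filter, or by DESeq2 (adjusted p between 0.0687 and 0.220). PHB2 was 1.62 times higher in SW1990 cells (-0.69 ± 0.14, adjusted p = 0.0200), with an adjusted p of 0.0623 without the unirradiated SW1990 library and 0.0548 without the unirradiated PANC-1 library. Its partner PHB did not pass (0.09 ± 0.13, adjusted p = 0.614), and its value was -0.06 with scaling to total counts. The ratio of PHB2 to PHB by FPKM was 1.73 and 1.36 in SW1990 cells and 0.957 and 0.881 in PANC-1 cells.

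FLOT1, FLOT2 and STOML2 did not pass. FLOT1 differed by 0.88 ± 0.27 (adjusted p = 0.0550), and passed by DESeq2 (adjusted p = 0.0467) or without the unirradiated SW1990 library (0.00753). Without the irradiated SW1990 library its difference was 0.47 (adjusted p = 0.140), and without the unirradiated or the irradiated PANC-1 library the adjusted p was 0.158 or 0.232. FLOT2 differed by -0.22 ± 0.23 (adjusted p = 0.493). It was 1.82 times higher by FPKM in unirradiated SW1990 than in unirradiated PANC-1 cells, but level between the irradiated libraries (1.02 times). Its log2 difference was 0.07 without the irradiated SW1990 library and 0.34 without the unirradiated PANC-1 library, and -0.85 (adjusted p = 0.0519) without the irradiated PANC-1 library. STOML2 differed by 0.31 ± 0.14 (adjusted p = 0.126).

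**Figure D1:**
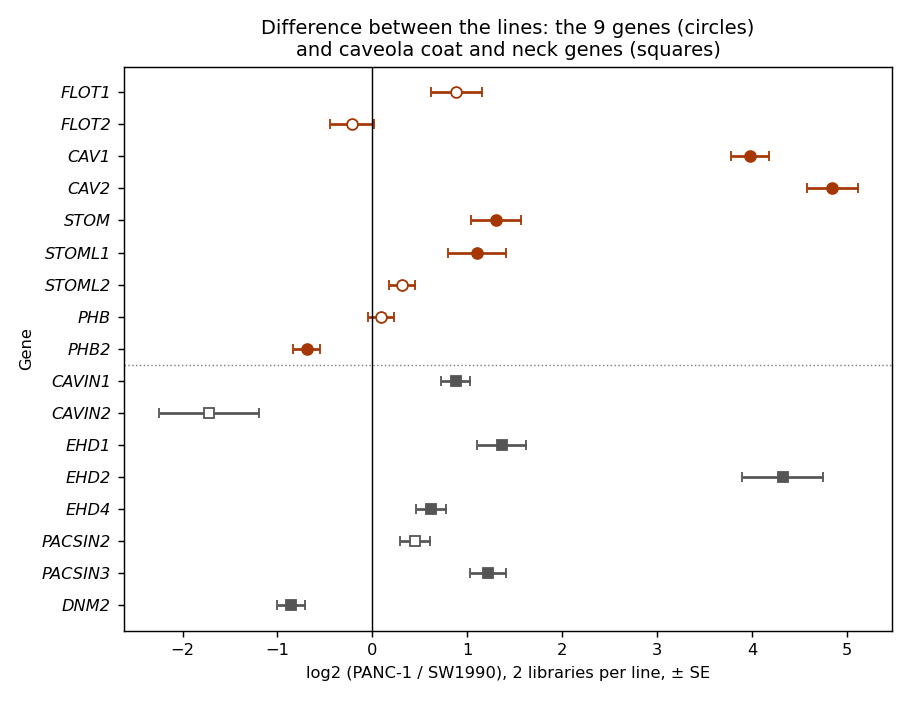
Log2 difference between PANC-1 and SW1990 cells (edgeR, 2 libraries per line, bars ± SE) for the 9 genes (circles) and for caveola coat and neck genes with counts in every library (squares). Filled symbols passed an adjusted p-value of 0.05. CAV1, CAV2 and EHD2 lie furthest to the right, at 3.98, 4.84 and 4.32.

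Other genes of caveolae were also compared between the lines. Of 10 genes of the caveola coat and neck tested, 6 were called higher in PANC-1 cells and 1 lower, beside 22.2% higher and 21.4% lower among all genes tested. The 6 include CAVIN3, which passed the count filter only through the PANC-1 libraries, so that its direction was fixed. The count is therefore not read against that of all genes. EHD2, an ATPase that stabilises the caveola neck, had 129, 322, 5014 and 3975 counts and a difference of 4.32 ± 0.43 (adjusted p = 0.00300). CAVIN1, the coat protein that caveolae require, had 64.0, 92.0, 114 and 138 FPKM and a difference of 0.88 ± 0.15 (adjusted p = 0.0127). EHD1, which acts in endocytic recycling, had 27.8, 28.4, 76.3 and 62.7 FPKM (1.36 ± 0.26, adjusted p = 0.0162). DNM2, the dynamin that cuts vesicles from membranes, was lower in PANC-1 cells (-0.86 ± 0.14, adjusted p = 0.0112). CAVIN3, named after its values were seen, had 0, 0, 461 and 411 counts. After radiation, EHD2 was called higher in SW1990 cells (log2 fold change 1.34, interval 1.04 to 1.65), the only one of 7 genes tested in that line, where 4.26% of all genes were called. In PANC-1 cells 0 of 8 were called, beside 4.77% of all genes, and EHD2 gave -0.20.

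Of the raft adaptors and kinases, 12 were tested between the lines, with 1 called higher in PANC-1 cells and 5 lower. The 5 include MAL2 and SORBS2, which passed the count filter only through the SW1990 libraries, so that their direction was fixed and the count is not read against that of all genes. MAL2, a raft protein of apical transport in epithelia, had 3919, 4239, 0 and 0 counts, and SORBS2, an adaptor named after its values were seen, had 267, 254, 1 and 0. The Src-family kinase YES1 had 43.4, 44.6, 28.1 and 27.2 FPKM (-0.47 ± 0.14, adjusted p = 0.0554), and ZDHHC5, a palmitoyltransferase that acts on FLOT2, had 24.8, 27.1, 29.5 and 24.9 FPKM (0.28 ± 0.19, adjusted p = 0.274). After radiation 0 of 12 genes tested were called in SW1990 cells (4.26% of all genes), and 1 of 9 in PANC-1 cells (4.77% of all genes), the kinase FYN, with 107 counts before 10 Gy and 41 in the irradiated library (log2 fold change -1.25, interval -1.81 to -0.72).

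Of 15 genes of mitochondrial proteases, scaffolds and related proteins listed beside the prohibitins, 0 were called after radiation in either line. Of all genes 4.26% and 4.77% were called, so that few calls would be seen in a list of this size. The log2 fold changes of the 15 genes had medians of -0.07 (SW1990) and -0.16 (PANC-1). Between the lines 2 of 15 were called higher and 2 lower in PANC-1 cells, beside 22.2% and 21.4% of all genes. The most abundant were C1QBP, a matrix protein, at 227, 194, 171 and 149 FPKM, the protease LONP1 (64.7, 60.1, 58.8 and 45.1 FPKM) and SPG7, a subunit of the m-AAA protease held by prohibitins (62.4, 72.9, 46.6 and 67.0 FPKM). None of these 3 passed between the lines, with differences of -0.22 ± 0.13, -0.25 ± 0.16 and -0.21 ± 0.14.

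Of 8 channels and transporters that bind stomatin or its relatives, 4 could be tested after radiation in the SW1990 libraries and 2 in the PANC-1 libraries, and 0 were called, too few genes to set beside 4.26% and 4.77% of all genes. SLC2A1, the glucose transporter GLUT1, had 127, 160, 16.1 and 13.4 FPKM, lower in PANC-1 cells (-3.19 ± 0.23, adjusted p = 0.00145), the opposite direction to STOM. SLC2A3, the glucose transporter GLUT3, had 283, 464, 0 and 4 counts, and passed the count filter only through the SW1990 libraries. ASIC1, an acid-sensing channel, had 4.28, 4.36, 1.53 and 2.12 FPKM (-0.72 ± 0.24, adjusted p = 0.0680). These 2 and SLC2A1 were the most abundant of the list.

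Among other genes of the same families, STOML3 and CAV3, known from sensory neurons and muscle, had at most 2 counts in any library. ERLIN1 and ERLIN2, SPFH proteins of the endoplasmic reticulum, had 18.6, 22.2, 34.2 and 24.1 FPKM and 17.5, 23.4, 4.24 and 4.25 FPKM. They differed between the lines in opposite directions, ERLIN1 by 0.87 ± 0.14 (adjusted p = 0.00948) and ERLIN2 by -2.47 ± 0.18 (adjusted p = 0.00149), and neither was called after radiation. Of all genes 43.6% passed between the lines, and 4.26% (SW1990) and 4.77% (PANC-1) were called after radiation.

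The transcripts whose pattern over the 4 libraries was nearest were found by the distance between centred log2 CPM values, among 8664 other genes that reached 10 FPKM in any library. Nearest to FLOT2 were MICALL2 (distance 0.13, 19.3, 22.4, 10.8 and 21.3 FPKM), ZNF707 (0.23) and ZNFX1 (0.25). Nearest to STOM were NFIX (0.08, 11.4, 15.6, 25.4 and 26.0 FPKM), ICAM1 (0.16) and HHLA3 (0.17), and to CAV1 NPAS2 (0.05, 6.02, 8.81, 84.8 and 66.6 FPKM), FAM131A (0.06) and BHLHE40 (0.13). With 4 libraries such likeness is a description and carries no test.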

How the data were processed

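The authors trimmed reads with Trimmomatic 0.36, aligned them to GRCh38 with HISAT2 2.0 and computed expression with StringTie 1.3.3b. They deposited raw counts per gene, made with a tool not named in the sources used here, and FPKM values, scaled by the authors to transcript length and library size. The labels name an mRNA library kit and rRNA depletion. The 1089 rows without an Ensembl identifier (0.453% to 0.635% of counts) were left out. The 9 members' coordinates equal those of GENCODE 29. Promoters are from RefSeq.

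Counts were scaled by TMM over 4 libraries (edgeR 4.0.16, R 4.3.3). Genes reaching 1 FPKM in either library were compared by edgeR's binomTest, 0 counts set to 0.01. A floor of 3 counts equals 0.129 to 0.168 CPM. The lines were compared by edgeR's quasi-likelihood test with Benjamini-Hochberg adjustment, on genes kept by filterByExpr, and SE is the log2 difference over the square root of F. DESeq2 1.42.0 served in alternatives. Tests were checked on simulated counts. Those for radiation held no spread between cultures, and those for the lines held less spread than the fit of these data. Members and lists were chosen with earlier results of these data known. Partner genes named are those called after radiation and the 3 most abundant per list, exceptions stated, and 1 listed gene is not reported here. Scaling, filters, limits, covariate and each library were varied.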

Additional observations from a re-analysis of the deposited data

Results flagged for a closer look

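Radiation responses of opposite sign in the lines, each with a counting interval on its own side of 0, were seen for 3 members. With 1 library per condition the differences between the lines were not tested. For FLOT1 the log2 fold change in PANC-1 cells exceeded that in SW1990 cells by 0.97 (0.15 against -0.82), and the FPKM values put both lines below 0 (-0.11 and -0.74). For CAV1 the response in PANC-1 cells minus that in SW1990 cells was -0.50 (-0.24 against 0.26), and for CAV2 it was -0.81 (-0.26 against 0.55). For CAV1 in SW1990 cells the interval began at 0.02 and would hold 0 with scaling to total counts, which gave 0.20 in place of 0.26, or with TMM factors from the SW1990 libraries alone (0.23). For the caveolins the FPKM values kept the signs, at -0.09 and 0.23 for CAV1 and -0.12 and 0.55 for CAV2.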

How the results depend on the processing

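For SW1990 cells, 1 member was called in the comparison as reported. Scaling by total counts, FPKM values, and TMM factors from the SW1990 libraries alone (an alternative chosen after seeing the data) each gave 0, and a fold change over 1.5 gave 2. In PANC-1 cells 1 member was called under every alternative run. The genes called numbered 670 in SW1990 and 723 in PANC-1 cells, and became 1495 and 1794 with a fold change over 1.5, 1499 and 1383 with a fold change over 2 and no q-value, and 1662 and 1540 from FPKM values with no q-value. They fell to 470 and 522 when a spread between cultures was assumed, with a coefficient of variation of 0.1. Between the lines, 5 members passed, and between 2 and 4 passed when any 1 library was left out with line as the only term, with 2 and 3 without the unirradiated and irradiated PANC-1 library. CAV1 and CAV2 passed in all of these fits. Of the members' log2 differences between the lines under all alternatives, 68 kept their side of the threshold, 11 lost it and 2 gained it. FLOT2 and PHB, which passed in none of them, changed sign in some. The causes of these changes were not tested. No replicates exist within a condition, so the spread between cultures is unknown, and for STOML1, with 70 to 171 counts, the counting interval of the fold in SW1990 cells ran from 0.682 to 1.35.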
